A study of Mus musculus with 6 samples.

Results

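Transcripts of the major histocompatibility complex (MHC), which present peptides to T cells, were examined with the genes that load those peptides in the kidney after ischemia and reperfusion, in wild-type C57BL/6 males. The set holds every gene of the deposited count table whose symbol begins with H2-, the mouse name of the complex, together with B2m, Tap1, Tap2, Tapbp, Psmb8, Psmb9, Psmb10, Cd74, Ciita and Nlrc5. Of 37 H2- entries, 3 (H2-Q5, H2-T10 and H2-Bl) are annotated as pseudogenes and were left out. This gave 44 genes of the 25031 in the table. H2-Ke6 is in the set by its name only, since it encodes a hydroxysteroid dehydrogenase and presents no antigen.

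All 6 libraries came from animals aged 7 to 8 weeks with no engineered allele, in which both kidneys were made ischemic for 23 minutes at a body temperature held at 37 °C. In the CePPy group, 3 libraries came from mice given 5 mg/kg of (+)CePPy, positively charged polypyrrole nanoparticles doped with cerium, by vein right after the injury. In the vehicle group, 3 libraries came from mice given the same volume of saline. No uninjured kidney was analysed here, and the sources used here do not give the time of collection. Whether each library is a separate animal is not in the labels either, so a p-value reflects how these libraries vary, and that variation may be technical.

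MHC class I molecules are made by nearly all nucleated cells and show peptides from the cytosol to CD8 T cells. Each is a heavy chain paired with beta-2-microglobulin, filled in the endoplasmic reticulum with peptides that the TAP transporter imports. The constitutive proteasome, or its immune form the immunoproteasome, cuts these peptides. MHC class II molecules are made mainly by dendritic cells, macrophages and B cells, and show peptides from endosomes to CD4 T cells. Interferon gamma can also switch class II on in other cells, kidney tubule epithelium among them, through the transactivator CIITA, while NLRC5 does the like for class I.

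Of the tested genes, 20 of 20 on the class I side and 9 of 10 on the class II side had higher values after CePPy, as did 50.5% of all genes tested. The 9 include H2-Oa, which passed the filter on low counts only through the CePPy libraries, so its direction carries no weight. The groups did not overlap, with CePPy higher, for 5 of 10 on the class II side and 1 of 20, H2-M3, on the class I side (12.3% of all genes). Of class II, H2-Ab1, which did overlap, stood at 58.1 ± 13.4 CPM in vehicle and 102 ± 28.4 in CePPy and Cd74 at 126 ± 31.5 and 193 ± 24.7 (SD, n = 3 libraries per group; CPM is the count divided by the TMM-scaled library size in units of 10 to the power 6). Of class I, H2-K1 stood at 298 ± 99.0 CPM in vehicle and 393 ± 121 in CePPy, high in vehicle 2 and low in CePPy 3. The class II share relative to class I was above every vehicle library in each CePPy library. With the quasi-likelihood test of edgeR over all genes, none of the set passed an adjusted p of 0.05. Of all genes, this test called 0% higher and 0.00649% lower. DESeq2, another tool, called 6 of the set higher, all on the class II side, and 3.64% of all genes higher.

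Total counts ran from 29762157 to 37415213 per library, and 1 count equalled 0.0266 to 0.0333 CPM. The filter on low counts kept 15416 genes of the table and 31 of the 44. Of those kept, H2-Oa alone passed through the CePPy libraries, 3 of which reached the minimum against 1 vehicle library. All 6 libraries held 0 counts for 10 class I genes, H2-T3, H2-M1, H2-M9, H2-M10.1, H2-M10.2, H2-M10.3, H2-M10.4, H2-M10.5, H2-M10.6 and H2-M11, which allows a level of up to 0.0798 to 0.10001 CPM (3 counts in a library, for counting error only). Between 0 and 12 counts per library were found for H2-M2, H2-M5 and H2-Eb2, which were not tested. The tissue label was met by the tubule markers, with Slc34a1 between 1036 and 3991 CPM and Umod between 2486 and 5406 CPM.

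Because the promoters of these genes carry short sequences that are known landing sites for immune regulators, the 200 bases before the RefSeq transcription start are printed for 3 class I genes and 2 class II genes (RefSeq, GRCm38.p6, 5′ to 3′ on the gene's strand). Capitals mark letters searched on both strands: the kappaB site of the class I enhancer (the capitals in H2-K1), the interferon-stimulated response element (the capitals in B2m), the Y box core CTGATTGG or its reverse complement, and the X box core CCTAGNNAC.
H2-K1 (chr17:34000348-34000547, minus strand): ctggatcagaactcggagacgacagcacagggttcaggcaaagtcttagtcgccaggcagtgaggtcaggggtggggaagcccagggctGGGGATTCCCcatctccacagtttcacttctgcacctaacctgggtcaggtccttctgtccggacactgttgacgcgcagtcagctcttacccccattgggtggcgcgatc
H2-D1 (chr17:35262894-35263093, plus strand): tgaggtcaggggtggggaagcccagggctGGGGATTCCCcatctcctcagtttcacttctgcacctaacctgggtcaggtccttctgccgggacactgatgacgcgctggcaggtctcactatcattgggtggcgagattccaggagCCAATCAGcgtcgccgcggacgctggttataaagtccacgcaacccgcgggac
B2m (chr2:122147487-122147686, plus strand): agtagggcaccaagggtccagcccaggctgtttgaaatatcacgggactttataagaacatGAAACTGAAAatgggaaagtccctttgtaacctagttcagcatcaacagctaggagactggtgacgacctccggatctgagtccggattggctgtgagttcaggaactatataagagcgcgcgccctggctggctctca
H2-Aa (chr17:34287824-34288023, minus strand): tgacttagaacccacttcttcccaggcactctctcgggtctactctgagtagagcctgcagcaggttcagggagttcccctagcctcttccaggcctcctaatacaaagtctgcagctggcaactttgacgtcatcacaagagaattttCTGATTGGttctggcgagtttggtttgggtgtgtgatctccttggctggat
H2-Eb1 (chr17:34305667-34305866, plus strand): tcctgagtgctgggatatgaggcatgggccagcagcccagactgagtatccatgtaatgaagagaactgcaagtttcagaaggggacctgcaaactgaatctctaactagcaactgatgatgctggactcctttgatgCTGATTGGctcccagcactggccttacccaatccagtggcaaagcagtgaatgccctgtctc

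In these windows the kappaB letters stood in H2-K1 and H2-D1, the interferon element in B2m, and the Y box letters in H2-D1, H2-Aa and H2-Eb1. The promoter table matched 37 of the 44 genes, with H2-Ab1 and Cd74 among those named only. Over the 250 bases before each start, the kappaB letters were found for 4 of 10 class I heavy chains, H2-Q6 and H2-Q7 included. These 10 are the tested ones with a promoter in the table. The same letters were found for 0 of 7 tested class II chain and loading genes and in 0.0852% of all 32851 promoters. They are the letters of the class I enhancer itself, so a high share in class I genes was built into the search. The interferon letters were found for H2-T22 and H2-T23 among the class I heavy chains and in 2.98% of all promoters. The Y box letters were found for 4 of the 10 and 3 of the 7 and in 3.83% of all promoters, and the X box letters for 0 and 2 and in 3.37%. Class I loading genes are outside these counts, and the Y box letters were found for Tap1 and Psmb9 among them. The RefSeq start of H2-D1 lies inside the gene as GENCODE M21 draws it, so its window is upstream in the former annotation only. A match describes letters only and is not a binding site. Only these fixed letters were searched, so a promoter without a match may still hold a variant of the interferon element or X box.

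The classical heavy chains H2-K1 and H2-D1, which carry most peptides to CD8 T cells, lie on chromosome 17 (GRCm38) at 33996017 to 34000347 on the minus strand and 35262730 to 35267499 on the plus strand. H2-K1 measured 264, 409 and 220 CPM in vehicle 1, 2 and 3 and 511, 398 and 269.9 in CePPy 1, 2 and 3. Vehicle 2 was above CePPy 2 and CePPy 3, so the groups overlapped. The log2 change, CePPy against vehicle, of H2-K1 was 0.40 (SE 0.28, adjusted p by edgeR = 0.466). H2-D1 measured 333, 491 and 291 CPM in vehicle and 581, 481 and 326 in CePPy, with a log2 change of 0.32 (SE 0.25, adjusted p by edgeR = 0.521). The same libraries stood high and low for this gene, CePPy 1 and vehicle 2 at the top and vehicle 3 at the bottom.

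The nonclassical heavy chains present fewer kinds of peptide or act on innate-like lymphocytes, and 10 of 22 passed the filter. All 10 had a log2 change above 0, between 0.14 for H2-T24 and 0.68 for H2-Q7, with a median of 0.45, and none passed the edgeR test. H2-T23, the mouse Qa-1 gene whose product is read by the NK receptor NKG2A, measured 53.5, 92.8 and 50.2 CPM in vehicle and 127, 93.9 and 63.0 in CePPy (log2 change 0.53, SE 0.30, adjusted p by edgeR = 0.368). H2-Q7, a Qa-2 gene, measured 16.7, 24.8 and 12.7 CPM in vehicle and 40.9, 25.1 and 20.9 in CePPy (0.68, SE 0.30, adjusted p by edgeR = 0.27). In both genes vehicle 2 reached about the level of CePPy 2. H2-M3, which presents formylated peptides of bacteria and mitochondria, was the only heavy chain without overlap between groups. It measured 3.56, 3.27 and 3.36 CPM in vehicle and 4.22, 6.17 and 4.6005 in CePPy, a log2 change of 0.56 (SE 0.21, unadjusted p = 0.0275, adjusted p by edgeR = 0.207).

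B2m, the light chain shared by all class I molecules (chromosome 2, 122147686 to 122153083, plus strand), measured 343, 538 and 310 CPM in vehicle and 767, 598 and 371 in CePPy. Vehicle 2 again lay above CePPy 3, and the log2 change was 0.54 (SE 0.29, adjusted p by edgeR = 0.345). Per kilobase of annotated exon, B2m was the most abundant gene of the set, with a mean of 462 CPM per kb in vehicle and 673 in CePPy. On the same scale H2-D1 measured 144 and 179, H2-K1 101 and 134, Cd74 75.1 and 115, H2-Ab1 22.6 and 39.8, H2-Eb1 21.6 and 33.9 and H2-Aa 10.98 and 16.3. The order of B2m, H2-D1, H2-K1 and Cd74 held in each of the 6 libraries except CePPy 3, where Cd74 at 103 CPM per kb was above H2-K1 at 91.9. These lengths come from the GENCODE M21 annotation, which may not be the one used for counting.

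**Figure D1:**
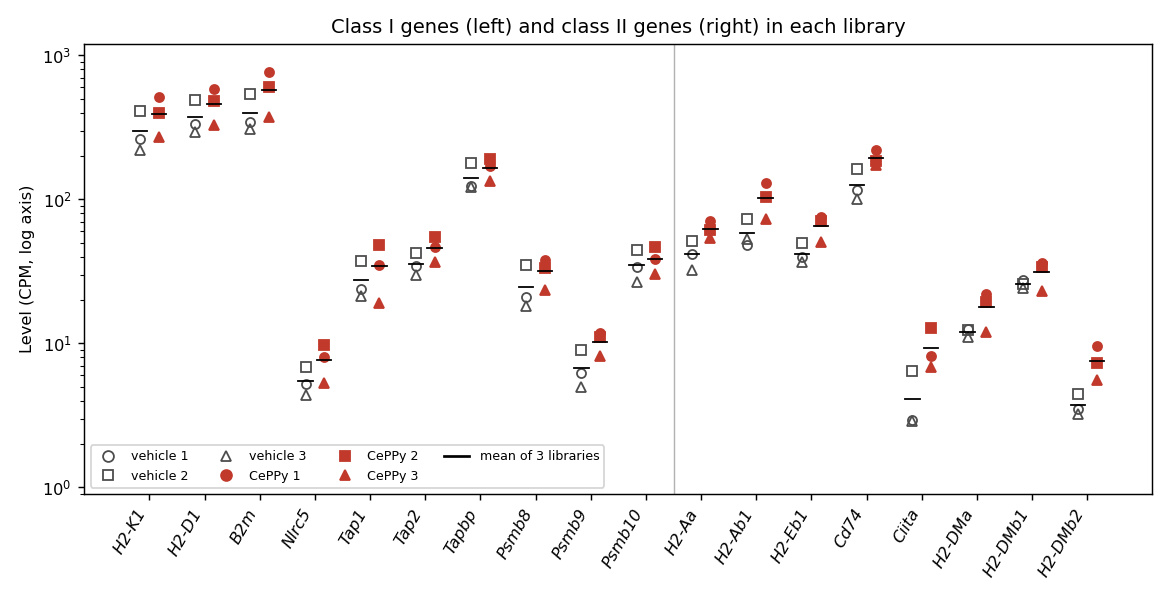
Level in CPM (log axis) of 10 class I genes (left of the line) and 8 class II genes (right) in each library; open grey symbols are vehicle libraries, filled red symbols CePPy libraries, and black bars the mean of 3. Vehicle 2 (open square) reaches the CePPy range in the class I genes, as for H2-K1 at 409 CPM, while H2-Aa, H2-Eb1, Cd74, Ciita and H2-DMb2 show no overlap.

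No class I loading gene passed an adjusted p of 0.05 by edgeR, which called 0 of all genes tested higher and 1 lower. Tap1 and Tap2 encode the peptide transporter, Tapbp encodes tapasin, which bridges it to the heavy chain, and Psmb8, Psmb9 and Psmb10 encode the catalytic subunits of the immunoproteasome. Their log2 changes lay between 0.13 for Psmb10 and 0.61 for Psmb9, with a median of 0.33, and none passed. Psmb9 measured 6.24, 9.004 and 4.96 CPM in vehicle and 11.7, 11.007 and 8.13 in CePPy (log2 change 0.61, SE 0.24, unadjusted p = 0.0369, adjusted p by edgeR = 0.233). Its only overlap was vehicle 2 above CePPy 3.

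Tap1 measured 23.97, 37.3 and 21.5 CPM in vehicle and 35.2, 48.3 and 19.2 in CePPy (log2 change 0.31, SE 0.33, adjusted p by edgeR = 0.635), with CePPy 3 the lowest of all 6 libraries. Without CePPy 2 its log2 change was -0.02, and that of Psmb10 was -0.03. Tap2 measured 34.5, 42.5 and 29.6 CPM in vehicle and 46.8, 55.0 and 36.7 in CePPy (0.38, SE 0.17, adjusted p by edgeR = 0.288). Tapbp measured 123, 180 and 122 CPM in vehicle and 169, 191 and 134 in CePPy (0.22, SE 0.18, adjusted p by edgeR = 0.545). In all 6 loading genes vehicle 2 was the highest vehicle library, CePPy 3 was the lowest CePPy library, and vehicle 2 was above CePPy 3.

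Psmb8 measured 20.9, 35.2 and 18.2 CPM in vehicle and 38.0, 33.3 and 23.4 in CePPy (log2 change 0.35, SE 0.27, adjusted p by edgeR = 0.505). Psmb10 measured 33.9, 44.6 and 26.8 CPM in vehicle and 38.4, 46.7 and 30.2 in CePPy (0.13, SE 0.21, adjusted p by edgeR = 0.767). Psmb5, the constitutive subunit that Psmb8 replaces, went the other way, at 245, 241 and 229 CPM in vehicle and 179.9, 192 and 179.8 in CePPy (-0.37, SE 0.08, adjusted p by edgeR = 0.102). Psmb5 was lower without overlap between groups, as were 14% of all genes. Without CePPy 2 it passed the edgeR test. In that setting calls over all genes went from 0 higher and 1 lower to 467 higher and 344 lower. As counts, Psmb8 was 8.55%, 14.6% and 7.98% of Psmb5 in vehicle and 21.1%, 17.4% and 13.02% in CePPy. Vehicle 2 at 14.6% lay above CePPy 3. Nlrc5, the class I transactivator, measured 5.21, 6.80 and 4.37 CPM in vehicle and 7.99, 9.78 and 5.33 in CePPy (log2 change 0.50, SE 0.26, adjusted p by edgeR = 0.339).

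The class II chains had higher values after CePPy in all 3 tested genes, with log2 changes of 0.57, 0.65 and 0.81 and a median of 0.65. None of the 3 passed the edgeR test. H2-Ab1, the beta chain of the I-A molecule (chromosome 17, 34257689 to 34269419, plus strand), measured 48.1, 73.3 and 53.1 CPM in vehicle and 130, 104 and 73.1 in CePPy. CePPy 3 lay just under vehicle 2, the only overlap, and the log2 change was 0.81 (SE 0.23, unadjusted p = 0.00712, adjusted p by edgeR = 0.139, by DESeq2 = 0.00849). H2-Aa, the alpha chain that pairs with it, measured 41.7, 51.3 and 32.2 CPM in vehicle and 70.5, 61.2 and 53.9 in CePPy. The groups did not overlap (log2 change 0.57, SE 0.17, unadjusted p = 0.0109, adjusted p by edgeR = 0.157, by DESeq2 = 0.0343).

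H2-Eb1 encodes the beta chain of I-E, a molecule that C57BL/6 mice do not complete because their alpha chain gene is defective. It measured 39.7, 49.5 and 36.7 CPM in vehicle and 76.0, 70.7 and 50.8 in CePPy, with no overlap. Its log2 change was 0.65 (SE 0.17, unadjusted p = 0.00504, adjusted p by edgeR = 0.128, by DESeq2 = 0.0105).

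Cd74, the invariant chain that guards the class II groove until the endosome (chromosome 18, 60803848 to 60812652, plus strand), measured 116, 162 and 101 CPM in vehicle and 221, 185 and 173 in CePPy. Every CePPy library was above every vehicle library, and the log2 change was 0.61 (SE 0.18, unadjusted p = 0.00878, adjusted p by edgeR = 0.148, by DESeq2 = 0.0171). Ciita, the master switch of class II genes (chromosome 16, 10480059 to 10528418, plus strand), measured 2.95, 6.44 and 2.91 CPM in vehicle and 8.19, 12.7 and 6.80 in CePPy. The groups did not overlap, though vehicle 2 came close to CePPy 3, and the log2 change was 1.17 (SE 0.37, unadjusted p = 0.0129, adjusted p by edgeR = 0.164, by DESeq2 = 0.0239). The ratio of Ciita to Nlrc5 counts was 0.567, 0.948 and 0.667 in vehicle and 1.02, 1.302 and 1.275 in CePPy, so it too did not overlap.

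The H2-DM molecule, made of an alpha and a beta chain, swaps the invariant chain remnant for antigen peptides. H2-DMb2, a beta chain gene, measured 3.51, 4.44 and 3.21 CPM in vehicle and 9.54, 7.31 and 5.60 in CePPy, a log2 change of 1.01 (SE 0.24) with no overlap. It had the lowest p of the set (unadjusted p = 0.00305, adjusted p by edgeR = 0.117, by DESeq2 = 0.00541). The neighbouring beta chain gene H2-DMb1 measured 27.7, 25.7 and 24.3 CPM in vehicle and 36.3, 34.0 and 23.1 in CePPy (0.27, SE 0.16, adjusted p by edgeR = 0.411). CePPy 3 was the lowest of the 6 libraries for H2-DMb1. H2-DMa, the alpha chain, measured 12.5, 12.4 and 11.1 CPM in vehicle and 21.9, 19.3 and 12.1 in CePPy (0.56, SE 0.21, unadjusted p = 0.0267, adjusted p by edgeR = 0.205), with CePPy 3 inside the vehicle range.

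H2-Oa and H2-Ob, which make the inhibitor of H2-DM and are mostly a B cell product, were near the detection limit. H2-Oa ranged from 0.0883 to 0.535 CPM and H2-Ob from 0.292 to 0.696, with log2 changes of 0.60 (SE 0.73) and -0.13 (SE 0.49). With a library left out, that of H2-Oa ranged from 0.20 without vehicle 2 to 1.85 without vehicle 3, and that of H2-Ob from -0.42 without CePPy 3 to 0.19 without vehicle 1.

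H2-Ke6, the dehydrogenase, measured 42.2, 44.6 and 46.6 CPM in vehicle and 55.5, 42.9 and 47.8 in CePPy (log2 change 0.13, SE 0.11, adjusted p by edgeR = 0.527).

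**Figure D2:**
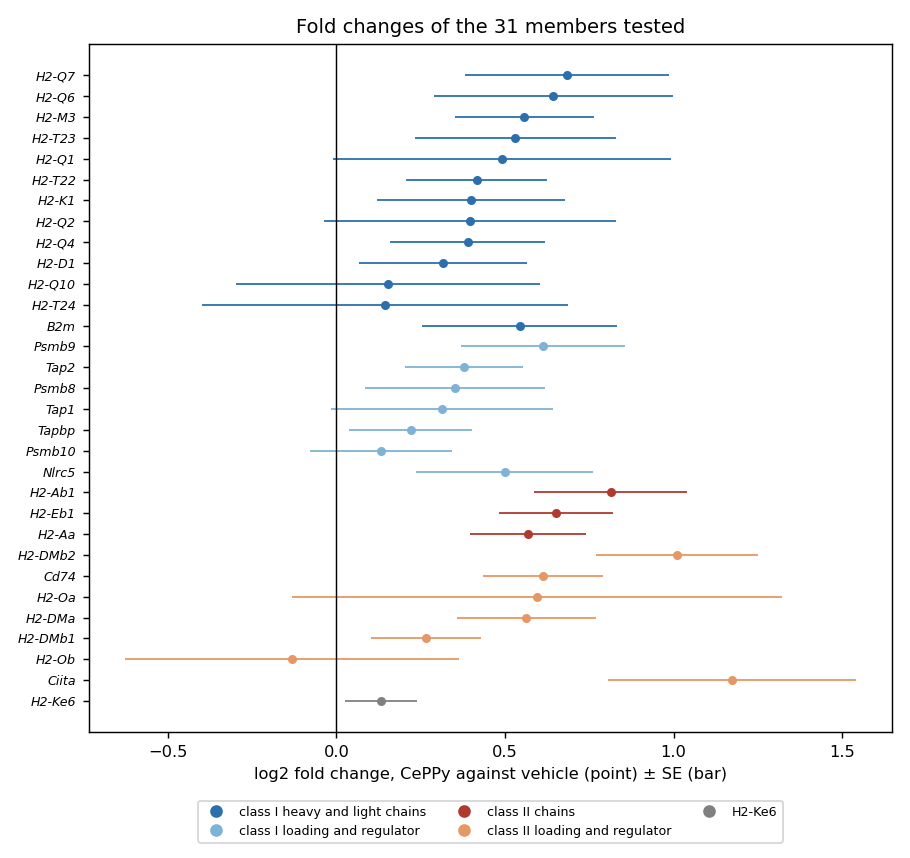
Log2 fold change of CePPy against vehicle for the 31 genes tested, grouped by role, with bars for the SE from the edgeR fit. The 3 class II chains lie between 0.57 and 0.81 and the 12 class I heavy chains between 0.14 and 0.68.

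Over the set, 30 of the 31 tested genes had a value above 0 (96.8%, where 50.5% of all genes tested did), and their median was 0.49 beside 0.00 for all genes. These genes share libraries and regulators and are not independent, and the 30 include H2-Oa, which passed the filter only through the CePPy libraries. By edgeR adjusted over all genes, 0 of 31 were higher and 0 lower, where 0% and 0.00649% of all genes were called. An unadjusted p under 0.05 with a higher value was reached by 9 of 31 (29%, against 9.65% of all genes) and with a lower value by 0 of 31 (9.37% of all genes), 7 of 10 on the class II side and 2 of 20 on the class I side. DESeq2 called 6 higher (H2-Aa, H2-Ab1, H2-Eb1, Cd74, H2-DMb2 and Ciita) and 0 lower, where it called 3.64% of all genes higher and 3.43% lower. All 6 were on the class II side.

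Groups did not overlap, with CePPy higher, for 6 of 31 genes (19.4%, against 12.3% of all genes), 5 of 10 on the class II side and H2-M3 on the class I side. H2-M3 apart, these were H2-Aa, H2-Eb1, Cd74, H2-DMb2 and Ciita.

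Library by library, the heavy chains of class I summed to 805, 1220 and 695 CPM in vehicle 1, 2 and 3 and to 1529, 1209 and 830 in CePPy 1, 2 and 3. Vehicle 2 was above CePPy 2 and CePPy 3. The class II chains summed to 130, 174 and 122 CPM in vehicle and 277, 236 and 178 in CePPy, and here the highest vehicle library stayed just under the lowest CePPy library. On the log2 scale the class I sum differed by 0.39 between the group means and the class II sum by 0.69, against SDs in vehicle of 0.42 and 0.27.

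Counts of class II chains were 16.1%, 14.3% and 17.6% of class I counts in vehicle (mean 16.0 ± 1.65, n = 3) and 18.1%, 19.5% and 21.4% in CePPy (mean 19.7 ± 1.68, n = 3). This ratio is taken within each library and does not depend on how libraries are scaled. The groups did not overlap, with vehicle 3 and CePPy 1 nearest each other. CePPy 3, the lowest CePPy library in both sums, had the highest ratio, and vehicle 2, the highest vehicle library in both sums, had the lowest. The log2 ratio was higher in CePPy by 0.30, and by 0.28 with Cd74 added to class II and 0.34 with H2-K1 and H2-D1 alone as class I. With mean log2 levels in place of sums the difference was 0.24 and the groups overlapped, vehicle 1 at 1.712 lying above CePPy 1 at 1.709. No test was run on the ratio, since a score over chosen genes gets none.

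**Figure D3:**
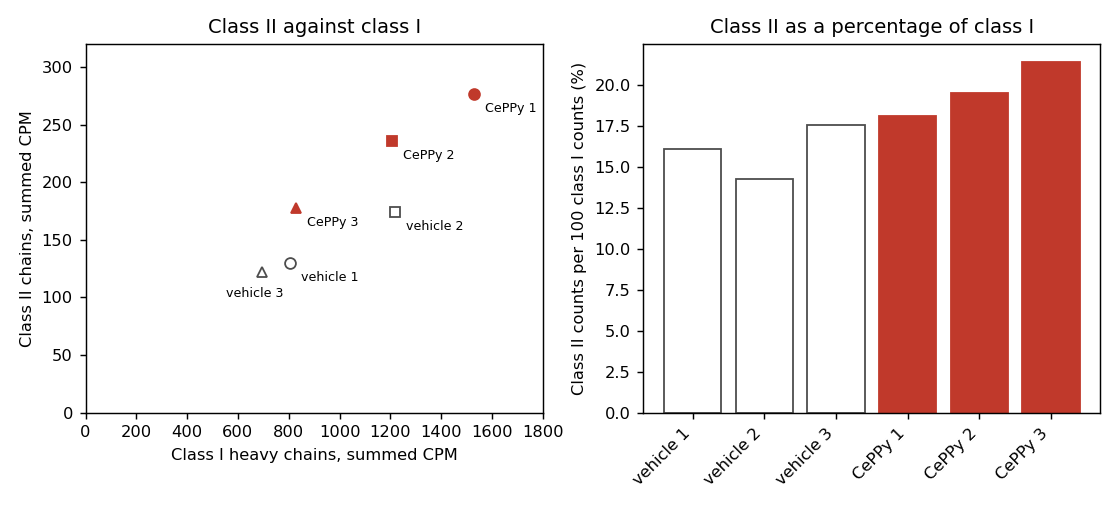
Left, summed CPM of the class II chains against that of the class I heavy chains, 1 point per library; right, class II counts as a percentage of class I counts in each library (white bars vehicle, red bars CePPy, axis from 0). The vehicle bars lie between 14.3% and 17.6% and the CePPy bars between 18.1% and 21.4%.

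Single pairs of genes gave the same picture in part. The log2 ratio of H2-Ab1 to H2-K1 was -2.46, -2.48 and -2.05 in vehicle and -1.98, -1.94 and -1.88 in CePPy, without overlap. H2-Eb1 against H2-K1, at -2.74, -3.05 and -2.58 in vehicle and -2.75, -2.49 and -2.41 in CePPy, did overlap. Of the other tested class II chain and loading genes, only H2-DMb2 was without overlap against H2-K1. H2-Aa overlapped against H2-K1, H2-D1 and B2m. H2-DMb1 and H2-Ob went the other way against H2-K1, with mean differences of -0.16 and -0.54. Against B2m, which differed more between the groups than H2-K1 did, H2-DMb2 alone of the class II genes tested was without overlap. B2m counts per class I heavy chain count were 0.427, 0.441 and 0.446 in vehicle and 0.502, 0.495 and 0.447 in CePPy. The classical genes took 73.6% to 74.2% of heavy chain CPM in vehicle and 71.4% to 72.7% in CePPy, also without overlap.

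Reads of near-identical class I genes may have been split between copies, since the sources used here do not say how such reads were handled. In the GENCODE M21 transcripts, 9.63% of 50-base windows of H2-K1 and 12.8% of those of H2-D1 occur unchanged in another gene. The share was 32.0% for H2-Q6, 26.4% for H2-Q7 and 34.5% for H2-T22, whose windows are shared mostly with the pseudogene H2-T10. Windows of H2-DMb1 and H2-DMb2 were shared at 22.7% and 24.8%, so the difference between these neighbours is uncertain. The share was 0% for B2m, Cd74, Ciita, H2-Ab1 and H2-Eb1, and 0.488% for H2-Aa. H2-Ke6 shared 70.5% with the overlapping gene model Gm20427. With the 8 tested H2-K, H2-D and H2-Q genes summed into 1 feature, the log2 change was 0.38 (SE 0.27, adjusted p by edgeR = 0.473), near that of H2-K1.

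On the class I side, as for the interferon-stimulated genes, CePPy 1, CePPy 2 and vehicle 2 were the 3 highest libraries and vehicle 1, vehicle 3 and CePPy 3 the 3 lowest, though the order within each 3 differed between the lists. This list of 28, which excludes the set, had a mean log2 level against vehicle of -0.43, 0.80 and -0.37 in vehicle and 0.96, 0.98 and -0.30 in CePPy. Vehicle 2 was above CePPy 3 for 27 of the 28, for 19 of 20 tested genes of the class I side, for 3 of 10 of the class II side and for 50% of all genes tested. Part of the pattern was on the class II side too. There vehicle 2 was the highest vehicle library for 6 of 10 genes and CePPy 3 the lowest CePPy library for 8 of 10. Over all 15416 genes tested, these counts were 5179 and 4326. Irf7, an interferon-induced regulator, measured 23.6, 131 and 22.7 CPM in vehicle and 145, 130 and 25.8 in CePPy. The part of this library pattern in the class I values was not tested.

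By edgeR, 0 of the 28 interferon-stimulated genes passed, where it called 0% of all genes higher and 0.00649% lower. Of the 28, 27 had a higher value (50.5% of all genes) and the median was 0.49. Cxcl9, a chemokine gene that interferon gamma induces, had the lowest p, at 0.947, 1.15 and 1.01 CPM in vehicle and 4.50, 3.06 and 2.20 in CePPy (log2 change 1.65, SE 0.32, adjusted p by edgeR = 0.1, by DESeq2 = 0.000679). Cxcl9 alone of the 28 was higher without overlap between groups, where 12.3% of all genes were. Iigp1 (0.57, SE 0.23), Gbp2 (0.67, SE 0.28) and Gbp6 (1.30, SE 0.56) followed, each with an edgeR adjusted p between 0.236 and 0.26. Ifng itself was at 0 to 0.292 CPM and was not tested.

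**Figure D4:**
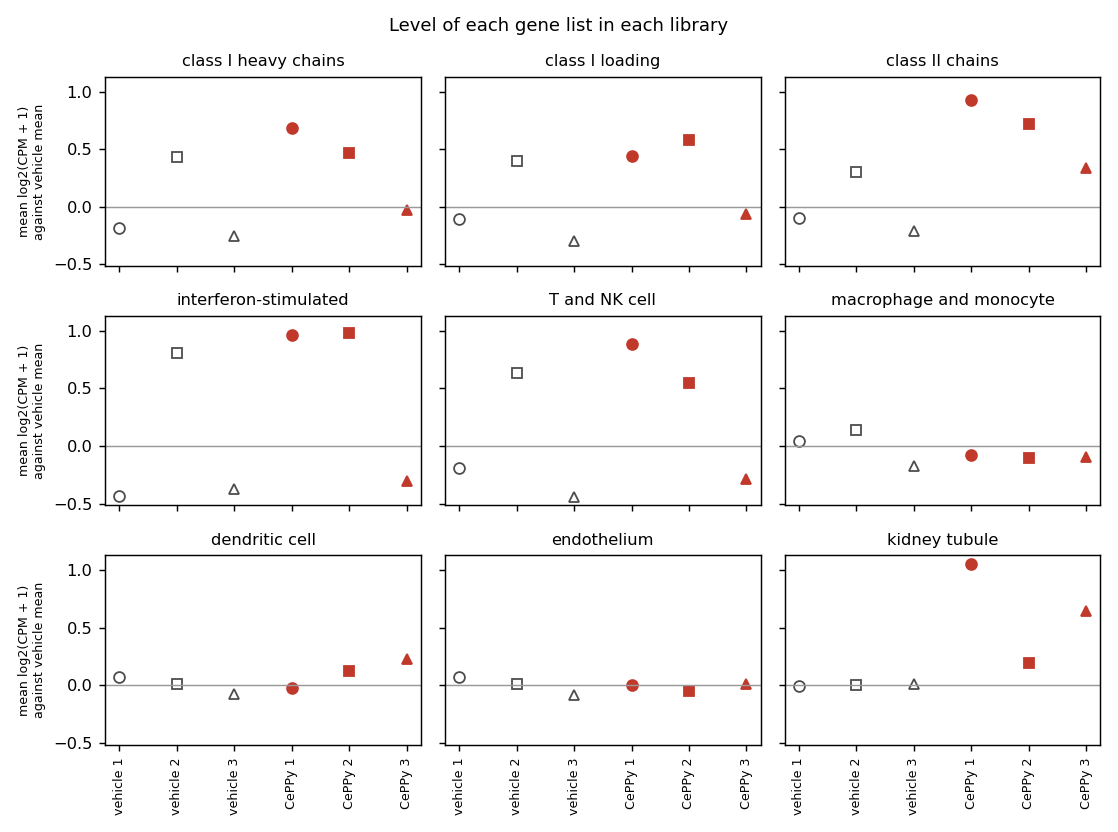
Mean log2(CPM + 1) of the tested genes of each list, relative to the mean of the vehicle libraries, in each library (open grey symbols vehicle, filled red symbols CePPy). Interferon-stimulated, T and NK cell and class I panels put vehicle 2 with CePPy 1 and CePPy 2, while the class II chains are at 0.34 or more in every CePPy library and at 0.30 in vehicle 2.

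No regulator passed the edgeR test, Ciita and Nlrc5 included, and this test called 0% of all genes higher and 0.00649% lower. Ciita, without overlap between groups, was called higher by DESeq2 (adjusted p by DESeq2 = 0.0239), and Nlrc5 was not (0.303). Of 18 further regulators tested, 7 had higher and 11 lower values, the median was -0.04 and edgeR called 0. Irf1, which drives Ciita and Tap1 after interferon gamma, measured 45.6, 42.6 and 45.9 CPM in vehicle and 45.9, 47.6 and 31.4 in CePPy (log2 change -0.10, SE 0.15, adjusted p by edgeR = 0.75). Ifngr2, a chain of the interferon gamma receptor, measured 60.6, 53.4 and 57.2 CPM in vehicle and 31.7, 51.4 and 41.2 in CePPy (-0.46, SE 0.16, adjusted p by edgeR = 0.192), lower without overlap. Of the 18 further regulators, 5 were lower and 1 higher without overlap, where 14% and 12.3% of all genes were. Rfx5, which binds the X box as part of the complex that recruits CIITA, had a log2 change of -0.11 (SE 0.13, adjusted p by edgeR = 0.663). Spi1, a myeloid transcription factor, was also lower without overlap (-0.37, SE 0.16, adjusted p by edgeR = 0.265).

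Among 11 further genes of peptide supply and loading, 7 had higher and 4 lower values with a median of 0.16. Of these edgeR called 0, where it called 0% of all genes higher and 0.00649% lower. The endoplasmic reticulum chaperone genes Hspa5 (log2 change 0.50, SE 0.12, adjusted p by edgeR = 0.117), Calr (0.31, SE 0.12, adjusted p by edgeR = 0.228) and Pdia3 (0.28, SE 0.10, adjusted p by edgeR = 0.188) were higher in each CePPy library than in any vehicle library. Over the 11, 4 were higher and 3 lower without overlap between groups, where 12.3% and 14% of all genes were. Calreticulin and PDIA3 sit in the class I loading complex. The protease genes that cut antigen and invariant chain for class II were not higher. Ctss, the cathepsin that trims CD74 in professional presenting cells, measured 39.9, 54.8 and 32.4 CPM in vehicle and 43.1, 49.0 and 29.4 in CePPy (-0.06, SE 0.23, adjusted p by edgeR = 0.905).

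Of 6 class II processing genes in the table, 1 had a higher and 5 a lower value, with a median of -0.25. March1 and March8, ligases that remove class II from the surface, had log2 changes of -0.25 (SE 0.29) and 0.14 (SE 0.09), and Ctsb and Lgmn each -0.27 (SE 0.15 for each), with no call by edgeR. Among 6 tested class I-like genes outside the complex, Hfe, which regulates iron uptake, was lower without overlap, at 38.4, 33.0 and 34.6 CPM in vehicle and 27.3, 27.4 and 26.4 in CePPy (-0.39, SE 0.09, adjusted p by edgeR = 0.114, by DESeq2 = 0.0174). Of this list, 1 of 6 was lower and 0 higher without overlap, where 14% and 12.3% of all genes were. The list's median was 0.19. Of 5 tested costimulatory genes 4 had a higher value, led by Icosl (0.37, SE 0.16, adjusted p by edgeR = 0.25), and Cd86 stood at 0.01 (SE 0.33). Cd80, at 0.223 to 1.13 CPM in vehicle and 0.113 to 0.50005 in CePPy, had the lower value (-1.41, SE 0.74, adjusted p by edgeR = 0.34).

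Markers of the cells that carry most class II gave mixed values. In bulk tissue, more cells of a type and more RNA per cell cannot be told apart. Summed levels of 14 macrophage and monocyte genes were 298 to 352 CPM in vehicle and 289 to 306 in CePPy, with 5 of 14 higher and a median log2 change of -0.11. Summed levels of 10 dendritic cell genes were 21.6 to 25.7 CPM in vehicle and 22.8 to 27.4 in CePPy, with 7 of 10 higher and a median of 0.27. Within that list Clec9a, a marker of cross-presenting dendritic cells, was at 1.43 to 1.71 CPM in vehicle and 1.83 to 3.10 in CePPy (0.70, SE 0.28, adjusted p by edgeR = 0.239), and Itgax was at 7.24 to 8.26 and 8.47 to 9.89 CPM. Of the 10, these 2 alone were without overlap between groups, with CePPy higher (12.3% of all genes). Xcr1 overlapped (0.34, SE 0.49, adjusted p by edgeR = 0.736), and 3 of the 10 had lower values, down to -0.20. The part of this list in the class II values was not tested.

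B cell genes were near the limit of detection in all libraries, with 5 genes in the table summing to 1.10 to 2.32 CPM in vehicle and 2.31 to 2.83 in CePPy and 2 of 5 tested. T and NK cell genes summed to 10.9, 28.3 and 6.595 CPM in vehicle and 33.6, 25.8 and 8.83 in CePPy, high in the libraries where class I was high. Of 10 tested, 9 had a higher value, the median was 0.73 and Cd4 had the lowest p (1.03, SE 0.38, adjusted p by edgeR = 0.206). Ptprc, the CD45 gene of all leukocytes, measured 16.3, 23.3 and 15.6 CPM in vehicle and 23.4, 24.009 and 18.8 in CePPy (0.26, SE 0.17, adjusted p by edgeR = 0.44). The other leukocyte genes, Coro1a at -0.13 and Laptm5 at -0.06, had lower values, and the median of the 3 was -0.06. Endothelial genes summed to 793 to 898 CPM in vehicle and 792 to 832 in CePPy, with a median of -0.04 over 9.

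Kidney tubule markers had higher values in all 11 genes, with a median log2 change of 0.57. Of the 11, edgeR called 0, where it called 0% of all genes higher. The groups did not overlap, with CePPy higher, for 6 of the 11 (12.3% of all genes). DESeq2 called 5 higher (Aqp1, Aqp2, Umod, Slc12a1 and Slc34a1), where it called 3.64% of all genes higher. The mean level of that list against vehicle was 1.05, 0.20 and 0.64 in CePPy 1, 2 and 3, where the class II chains stood at 0.93, 0.72 and 0.34 and the class I heavy chains at 0.69, 0.47 and -0.02. The part of the tubule list in the class I and class II values was not tested.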

How the data were processed

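Messenger RNA libraries from 6 kidney samples, 3 vehicle and 3 CePPy by their titles, were made from 2 µg of total RNA extracted with TRIzol, per the labels' protocols. The authors deposited raw read counts per gene in 1 table, and the labels tie each column to a sample. Cufflinks, DESeq, TopHat2 and GRCm38 stand without versions in the submitters' processing notes, and the sources used here do not give the counter, its use of strand or shared reads, or the annotation. Positions, biotypes and exon lengths came from GENCODE M21 (GRCm38) and promoters from RefSeq (GRCm38.p6).

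Counts were filtered with filterByExpr (15416 genes kept), scaled by TMM and tested by quasi-likelihood in edgeR 4.0.16 (R 4.3.3), treatment being the only term (4 residual degrees of freedom), with Benjamini-Hochberg adjustment over all genes tested and a threshold of 0.05. The SE was taken from the test statistic. The fit was tested on simulated data. Log2 fold changes are CePPy against vehicle, and errors are SD or SE. DESeq2 1.42.0, another scaling, no filter, a replicate block and each library left out were tried.

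The genes and lists were chosen with earlier results of these data known. Values were given for each main gene and each further one with an unadjusted p under 0.05, the rest by range, and for other lists up to 4 genes by lowest p, plus Irf1 and 1 further gene that is not reported here. Irf7, Ctss, Rfx5, Cd86, March1, Ifng and Umod, and the library values of H2-T23, H2-Q7 and H2-Ke6, were added after their values were seen. Ifi30, Ighm and Ighd were not analysed here.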

Additional observations from a re-analysis of the deposited data

How the results depend on the processing

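The calls turned on the tool. DESeq2 called 6 genes of the set higher and 4 pathway genes outside it, where edgeR called 0 of each. Of the 4, Cxcl9 and Hspa5 were higher and Hfe and Psmb5 lower. Of all genes, DESeq2 called 3.64% higher and 3.43% lower, and edgeR 0% and 0.00649%. Unfiltered counts, RLE scaling and the left-out libraries gave 0 calls in the set, and the lowest edgeR adjusted p in the set ranged from 0.0839 without CePPy 2 to 0.344 without vehicle 1. Without CePPy 2, 3 pathway genes passed (Hspa5, Ifngr2 and Psmb5) while calls over all genes went from 0 higher and 1 lower to 467 and 344, and over the left-out libraries this count ranged from 0 to 3. The class I median of 0.41 ranged from 0.24 without CePPy 1 to 0.66 without vehicle 2, the class II median of 0.65 from 0.54 to 0.81 and the log2 ratio of class II to class I of 0.30 from 0.22 to 0.37. The sign of low or weak genes turned with single libraries, over ranges of -0.17 to 0.61 for H2-Q10, -0.21 to 1.08 for H2-T24, -0.42 to 0.19 for H2-Ob, -0.0333 to 0.34 for Psmb10 and -0.0186 to 0.60 for Tap1. The samples share only a replicate number: same-numbered libraries correlated at -0.15, 0.10 and -0.02 in their deviations, and vehicle 1 correlated best with CePPy 3 (0.18). With the replicate block, 0 genes of the set were called (lowest adjusted p by edgeR = 0.184 against 0.117), and the log2 ratio of class II to class I differed by 0.17, 0.45 and 0.29 within numbers 1, 2 and 3. An exact permutation test of 3 against 3 libraries cannot give a two-sided p below 0.1.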

Other observations

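The pseudogenes left out of the set carried reads too. H2-Q5 had 93, 111 and 77 counts in vehicle and 155, 137 and 80 in CePPy, and H2-T10 had 55, 74 and 54 in vehicle and 108, 92 and 47 in CePPy. H2-Bl had 5 counts or fewer in every library. In the deposited table March1 and March8 stand under symbols written as dates, and they were found by their Ensembl identifiers.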
